A study of Mus musculus with 6 samples.

Results

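Immediate early genes are transcribed within minutes of a stimulus, without new protein synthesis, and the transcription factors among them pass a signal on to later genes. FOS and JUN family proteins pair to form the AP-1 dimers, EGR1 binds GC-rich elements, and both groups are induced through MAP kinases acting on factors already bound at their promoters. In liver they are known for their response to tissue injury, partial hepatectomy and cell stress, and their mRNAs and proteins are short-lived. The 10 genes described here are the AP-1 subunits Fos, Fosb, Jun and Junb, the zinc finger factor Egr1, the stress-induced bZIP factor Atf3, the zinc finger factor Klf6, the growth regulator Myc, and the immediate early response genes Ier2 and Ier3. They were chosen by name from the symbols of the deposited expression tables and all 10 were found among the 18390 genes listed in any of the 6 libraries. Each of the 10 had reads in all 6 libraries and was tested in every comparison.

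Liver RNA of male C57BL/6 mice (C57BL/6J in the paper) was sequenced in 6 libraries, with 1 library per condition, in 2 separate models of liver disease. The labels give an age of 6 to 8 weeks. Given 16 weeks of diet or 6 weeks of injections, it was taken to be the age at the start. In the diet model, the CD library came from a chow diet control, the HFD library from a mouse group on a high-fat diet for 16 weeks, and the JT003-HFD library from the same diet with JT003 over 4 weeks. In the fibrosis model, the Oil library came from controls injected with corn oil, the CCl4 library from carbon tetrachloride injected in corn oil every 3 days for 6 weeks, and the JT003-Fibrosis library from CCl4 with JT003 over 3 weeks. JT003 is a short peptide agonist of the adiponectin receptors AdipoR1 and AdipoR2, given daily by intraperitoneal injection, and all mice were fasted before they were killed. The labels give the HFD library the disease state NASH, and the paper describes the sequenced livers as those of mice on the high-fat diet, while its methods use NASH for a model with an added methionine- and choline-deficient diet. The time from the last injection to sacrifice, the time of day, and whether a library holds 1 mouse or several are not given in the sources used here. The labels give JT003 libraries no vehicle control of their own.

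The rounded expected counts of a library summed to 19374255 to 20184578. With 1 library per group there is no replicate check, and each test below compares the reads of 2 libraries, not the conditions. Hepatocyte markers, among them albumin, summed to 83444 to 101615 CPM (counts scaled to a library of 1000000 reads) in the 6 libraries, and none of these markers was at 0. Bulk liver RNA cannot tell fewer cells of a type from less RNA per cell. The diet and fibrosis models were separate experiments, so model and experiment cannot be told apart.

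The proximal promoters of 6 members are shown first, those of the members called in a main comparison that had a window, and that of Junb, which holds an element found in 3 of them. RefSeq promoter windows of GRCm38.p6, from 250 bases before to 50 bases after the start, were at hand for 7 of the 10 members (Fos, Fosb, Jun, Junb, Atf3, Klf6 and Ier3). Egr1, Ier2 and Myc were not matched. The 150 bases before the start are printed 5′ to 3′ on the gene's strand, with capitals marking TGACG, the core of the cyclic AMP response element bound by CREB and ATF proteins, on either strand, and GCGNGGGCG, the element bound by EGR proteins. The windows are chr12:85473740-85473889 (plus strand) for Fos, chr7:19310046-19310195 (minus strand) for Fosb, chr8:84978749-84978898 (minus strand) for Junb, chr1:191183334-191183483 (minus strand) for Atf3, chr4:95052223-95052372 (minus strand) for Jun and chr13:5861339-5861488 (plus strand) for Klf6.
Fos: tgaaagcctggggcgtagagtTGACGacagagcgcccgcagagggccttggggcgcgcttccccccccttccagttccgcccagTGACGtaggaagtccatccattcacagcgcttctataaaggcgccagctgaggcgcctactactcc
Fosb: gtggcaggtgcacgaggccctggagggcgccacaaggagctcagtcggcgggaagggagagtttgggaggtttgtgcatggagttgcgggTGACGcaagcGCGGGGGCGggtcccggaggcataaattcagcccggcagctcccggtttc
Junb: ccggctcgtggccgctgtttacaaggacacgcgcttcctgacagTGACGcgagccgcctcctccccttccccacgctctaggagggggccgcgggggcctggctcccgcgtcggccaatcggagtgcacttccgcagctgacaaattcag
Atf3: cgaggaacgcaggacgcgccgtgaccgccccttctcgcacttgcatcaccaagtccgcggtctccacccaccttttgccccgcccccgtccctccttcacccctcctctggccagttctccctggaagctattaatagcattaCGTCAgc
Jun: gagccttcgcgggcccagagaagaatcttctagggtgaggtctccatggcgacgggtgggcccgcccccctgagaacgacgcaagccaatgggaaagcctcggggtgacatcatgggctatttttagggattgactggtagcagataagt
Klf6: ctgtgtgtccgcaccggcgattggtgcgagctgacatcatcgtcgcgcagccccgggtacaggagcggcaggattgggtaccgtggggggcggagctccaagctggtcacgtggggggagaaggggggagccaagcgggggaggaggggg

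TGACG was found in 4 of the 7 member windows (Fos, Fosb, Junb and Atf3), against 21% of 27025 mouse promoter windows of the same length. Fos held it at -129 to -125 and at -66 to -62 relative to the start, Fosb at -60 to -56, Junb at -106 to -102, and Atf3, on the opposite strand, at -7 to -3. The EGR element was found in Fosb alone among the 7, at -50 to -42, 5 bases from its TGACG match, against 5.55% of all windows. The CArG box of serum response factor was found in 0 of 7 member windows, against 1.57% of all, and the AP-1 site TGANTCA in 0 of 7, against 7.93%. For the AP-1 site only TGANTCA was searched, and longer variants, such as the tgacatca printed above for Jun and Klf6, were not counted. The matches do not overlap each other. A match is a string of letters and not evidence of binding, and an element further upstream lies outside these windows.

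Compared per transcript length, the 10 genes covered a wide range of levels. By the median FPKM over the 6 libraries, Ier2 (16.95), Junb (15.8) and Jun (14.1) were the most abundant, followed by Egr1 (8.98), Myc (4.92), Klf6 (4.12), Atf3 (2.33), Ier3 (1.48), Fos (0.885) and Fosb (0.075). Fos and Fosb, the classical serum-induced pair, were the least abundant. Their counts, 22 to 85 for Fos and 2 to 32 for Fosb, limit the precision of every ratio given for them. Atf3 and Fosb spanned the widest range between libraries, with the highest level 13.3 times the lowest for Atf3 and 17.1 times for Fosb. Ier3, Ier2 and Junb spanned the narrowest, at 1.91, 2.08 and 2.12 times.

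**Figure D1:**
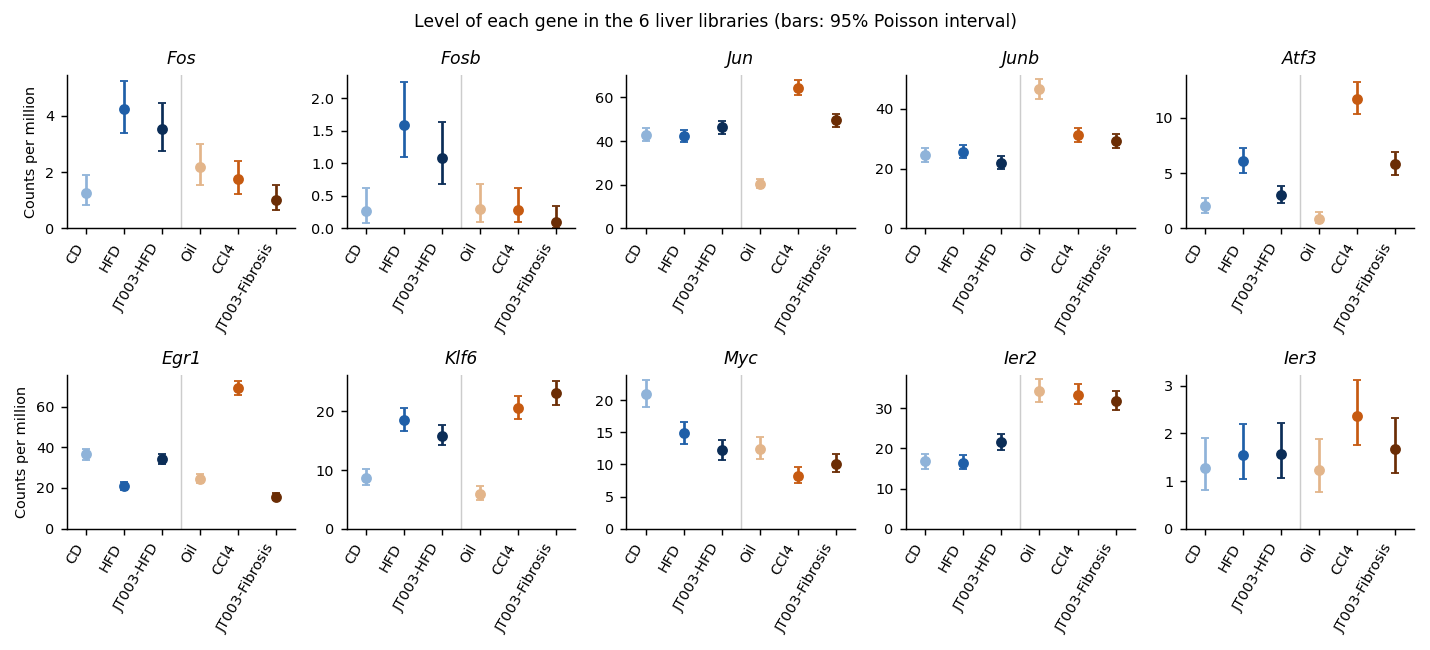
Level of each gene in CPM (vertical axis, from 0, scaled per panel) in the 6 libraries, with 95% Poisson intervals of the counts. Klf6 and Atf3 were lowest in the 2 control libraries, Egr1 stood out in the CCl4 library at 69.0, and Fos and Fosb were highest in the HFD library.

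In the high-fat diet library, 4 of the 10 genes rose against CD and 0 fell. They were Atf3, Fos, Fosb and Klf6, with log2 ratios of 1.54, 1.66, 2.20 and 1.09. A gene was called when its adjusted p-value in the two-sided exact conditional binomial test (Benjamini-Hochberg over all genes with reads) was under 0.001 and its absolute log2 ratio was at least 1, and by this rule 5.39% of 16973 genes were called, 2.92% as higher. The median log2 ratio of the 10 members was 0.16, against -0.0004 over all genes tested.

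Fos, the founding subunit of AP-1, had 24 counts in CD, 85 in HFD, 72 in JT003-HFD, 37 in Oil, 37 in CCl4 and 22 in JT003-Fibrosis. The highest libraries were thus both of the high-fat diet. Its log2 ratio of HFD against CD was 1.66 (95% interval 1.07 to 2.45, adjusted p = 1.55e-07), and with JT003 the ratio to CD was 1.40 (0.79 to 2.20). Fos was the only member called in JT003-HFD against CD, where 5.92% of genes were called, 3.16% as higher. Fosb, its close relative, had 5, 32 and 22 counts in the 3 diet libraries and 5, 6 and 2 in Oil, CCl4 and JT003-Fibrosis. The ratio of HFD against CD was 2.20 (1.22 to 4.30, adjusted p = 8.76e-05). Across the 6 libraries the profiles of Fos and Fosb were the most alike of any pair among the members, with a Pearson r of 0.96. This describes 6 points that include few reads of Fosb.

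Atf3, a bZIP repressor induced by endoplasmic reticulum and oxidative stress, had 38 counts in CD, 122 in HFD and 61 in JT003-HFD. The HFD library was higher than both other diet libraries, whose intervals overlapped. The log2 ratio of HFD against CD was 1.54 (1.06 to 2.16, adjusted p = 1.84e-09). Klf6, a Kruppel-like factor known as an early gene of stellate cell activation, had 164, 373 and 324 counts in CD, HFD and JT003-HFD. Both high-fat diet libraries lay above CD, and the ratio of HFD to CD was 1.09 (0.83 to 1.37, adjusted p = 6.15e-16).

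The other members on the high-fat diet did not reach the fold threshold. Egr1 had 689 counts in CD and 420 in HFD, a log2 ratio of -0.80 (-0.98 to -0.63, adjusted p = 7.51e-19), and Myc had 395 and 298, a ratio of -0.50 (-0.72 to -0.28, adjusted p = 3.84e-05). Both ratios passed the p-value threshold in the direction opposite to Fos. Jun, Junb and Ier2 had ratios of -0.03, 0.06 and -0.02, with intervals inside -0.25 to 0.24, so that a change of the size seen for Klf6 is outside their counting error. Under an assumed biological coefficient of variation of 0.2 (edgeR's exact test), 0 of the 10 members were called between HFD and CD, so the calls hold for these 2 libraries only.

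JT003 on the high-fat diet left 0 of the 10 members called against HFD, where 1.63% of 17094 genes were called. The member nearest to a call was Atf3, with 122 counts in HFD and 61 in JT003-HFD, a log2 ratio of -1.0 (-1.49 to -0.57, adjusted p = 4.29e-05). The fold of 1.9986 fell just short of the threshold of 2, and Atf3 was called with DESeq2 size factors and with a prior count of 0.5. Fos (-0.26, -0.74 to 0.21), Fosb (-0.52, -1.42 to 0.26) and Klf6 (-0.22, -0.45 to -0.01), the other members that rose on the diet, had smaller ratios.

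Egr1 had the largest ratio of a member in the other direction, with 420 counts in HFD and 698 in JT003-HFD (0.71, 0.53 to 0.89, adjusted p = 1.55e-14). The JT003-HFD level, 34.2 CPM, lay beside that of CD, 36.5, with overlapping intervals. Ier2 had a ratio of 0.38 (0.18 to 0.60, adjusted p = 0.00179). Jun (0.14), Ier3 (0.02), Junb (-0.22) and Myc (-0.28) completed the list, and the median of the 10 was -0.22 against -0.01 over all genes. The HFD library is shared by this comparison and that of HFD with CD, so a high or low value of that one library enters both with opposite sign.

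**Figure D2:**
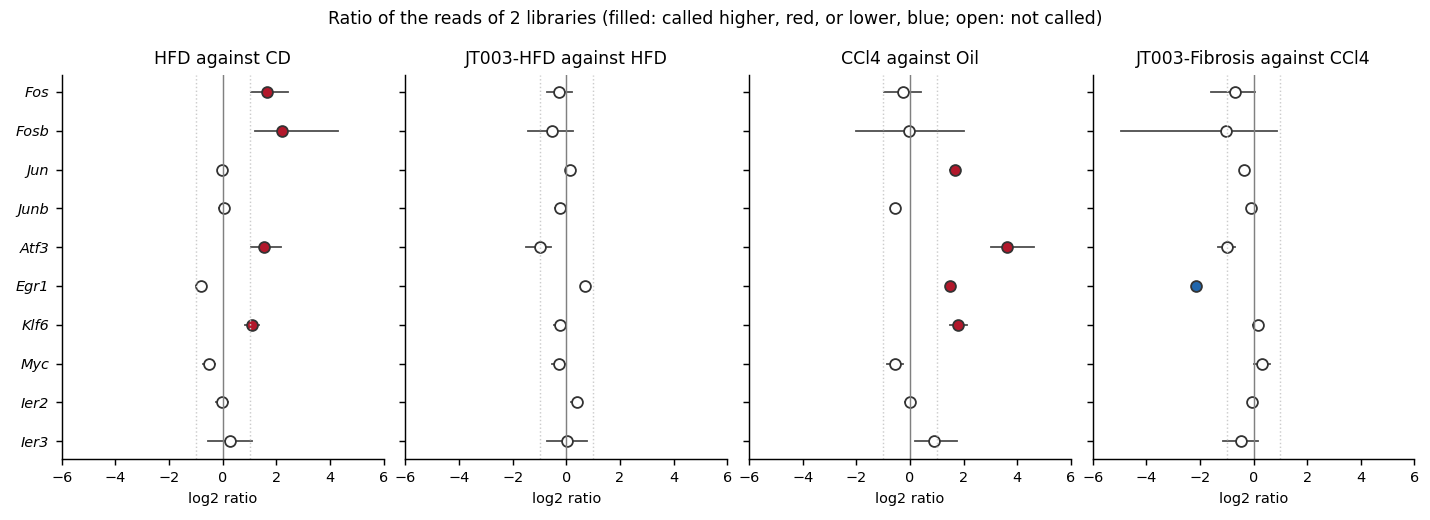
Log2 ratio of each gene (horizontal axis) in the 4 main comparisons, with 95% Clopper-Pearson intervals and dotted lines at the fold threshold of 1. Filled points were called, and there were 4, 0, 4 and 1 of them from left to right, the last being Egr1 at -2.13.

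In the CCl4 library, 4 members rose against Oil and 0 fell, with Atf3 and Klf6 again among them but Jun and Egr1 in place of Fos and Fosb. The log2 ratios were 3.61 for Atf3, 1.80 for Klf6, 1.68 for Jun and 1.51 for Egr1. Over all 17236 genes, 7.18% were called, 4.76% as higher. The median ratio of the members was 0.45, against 0.0047 over all genes.

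Atf3 had 15 counts in Oil, 248 in CCl4 and 124 in JT003-Fibrosis, so that the Oil level was the lowest of the 6 libraries and the CCl4 level the highest. The log2 ratio of CCl4 to Oil was 3.61 (3.01 to 4.62, adjusted p = 1.23e-44), or 12.2-fold. Klf6 had 102, 438 and 496 counts in Oil, CCl4 and JT003-Fibrosis, a ratio of 1.80 (1.50 to 2.14, adjusted p = 7.85e-36) for CCl4 to Oil. Klf6 and Atf3 were the only members called higher in both HFD against CD and CCl4 against Oil.

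Jun, the AP-1 subunit required for hepatocyte proliferation after partial hepatectomy, had 349 counts in Oil, 1367 in CCl4 and 1063 in JT003-Fibrosis. It had 811, 847 and 945 counts in CD, HFD and JT003-HFD. The 3 diet libraries and the JT003-Fibrosis library were close together, with CCl4 above them and Oil well below. The ratio of CCl4 to Oil was 1.68 (1.51 to 1.86, adjusted p = 6.24e-100). Jun was also called lower in Oil than in CD, at -1.06 (-1.25 to -0.88).

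Egr1, which is induced by growth factors and mechanical or toxic injury, had 418 counts in Oil, 1463 in CCl4 and 335 in JT003-Fibrosis. The CCl4 library was the highest of the 6 and JT003-Fibrosis the lowest, outside the intervals of all others. The ratio of CCl4 to Oil was 1.51 (1.36 to 1.68, adjusted p = 1.69e-92).

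Fos and Fosb, which rose in HFD, had 37 and 5 counts in Oil and 37 and 6 in CCl4, with ratios of -0.27 (-0.99 to 0.41) and -0.02 (-2.0 to 2.03). For Fos this interval lies below that of HFD against CD, 1.07 to 2.45. For Fosb it overlaps that of HFD against CD, 1.22 to 4.30. The difference between the models was not tested. Junb had 792 and 661 counts (-0.55, -0.70 to -0.40, adjusted p = 4.59e-12) and Myc 211 and 175 (-0.55, -0.86 to -0.26, adjusted p = 0.00071), both past the p-value threshold and short of the fold threshold. Ier2 had a ratio of -0.01 (-0.17 to 0.15). Ier3, a regulator of survival and ERK signalling, had 21 and 50 counts, a ratio of 0.91 (0.20 to 1.77, adjusted p = 0.031). Under the assumed coefficient of variation of 0.2, 1 of the 4 calls remained, that of Atf3.

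Between JT003-Fibrosis and CCl4, Egr1 was the only member called, and it fell from 1463 to 335 counts. The log2 ratio was -2.13 (-2.31 to -1.97, adjusted p = 1.68e-167), a 4.38-fold difference. Of all 17393 genes, 4.41% were called, 2.50% as lower. The level in JT003-Fibrosis, 15.6 CPM, was below that of Oil, 24.6, and the ratio to Oil was -0.62 (-0.83 to -0.41, adjusted p = 4.81e-08). Egr1 remained called under the assumed coefficient of variation of 0.2 and not under 0.4.

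Atf3 had 248 counts in CCl4 and 124 in JT003-Fibrosis, a ratio of -1.0 (-1.33 to -0.69, adjusted p = 6.7e-10), again just short of the fold threshold and called with DESeq2 size factors or a prior count of 0.5. Jun had a ratio of -0.37 (-0.49 to -0.26, adjusted p = 1.98e-09). The values of Fos (-0.71, -1.59 to 0.04), Fosb (-1.01, -4.94 to 0.89) and Ier3 (-0.46, -1.14 to 0.16) had intervals that include no difference. Klf6 (0.17, -0.02 to 0.36), Junb (-0.09, -0.25 to 0.07), Ier2 (-0.06, -0.21 to 0.09) and Myc (0.30, 0.01 to 0.60) differed little. Against Oil, the JT003-Fibrosis library still had Atf3 at 2.61 (1.97 to 3.63), Klf6 at 1.96 (1.67 to 2.30) and Jun at 1.30 (1.13 to 1.49), which were the 3 members called there, where 4.95% of genes were called, 3.22% as higher. The median of the members was -0.42 for JT003-Fibrosis against CCl4, and -0.0036 over all genes. The CCl4 library is shared with the comparison of CCl4 and Oil.

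A comparison table deposited with the series holds a second column of CCl4 counts, and it bears on how far the CCl4 library stands for its group. The column sums to 59938019, which is 2.97 times the CCl4 library, and it lies below that library in 24 genes, by 0.99 counts at most. It therefore appears to pool the CCl4 library with others that the table does not name, an inference from the values. Taking the CCl4 library away left 39781108 counts, a remainder with no known number of mice.

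Egr1 was at 70.8 CPM in the remainder and at 71.4 in the CCl4 library, on one scale for the 4 columns. The Egr1 level was thus the same in both to within counting error (log2 ratio -0.01, -0.10 to 0.08). Atf3 was at 10.5 and 12.1, Junb at 31.6 and 32.2, Ier3 at 2.40 and 2.44, Myc at 9.31 and 8.54, and Fos at 2.0 and 1.81, all with intervals of the ratio that include 0. Jun was lower in the remainder (46.3 against 66.7), as was Ier2 (27.7 against 34.5), and Klf6 was higher (30.4 against 21.4). These 3 passed the p-value threshold and not the fold threshold. Fosb had 2 counts in the remainder and 6 in the library. None of the 10 was called between the remainder and the CCl4 library, where 1.64% of genes were.

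Against Oil, the remainder gave the same 4 calls as the library, with Atf3 at 3.44, Klf6 at 2.29, Egr1 at 1.49 and Jun at 1.14, where 9.54% of genes were called, 6.96% as higher. The call of Egr1 in JT003-Fibrosis was likewise there against the remainder, at -2.11 (-2.28 to -1.95), where 4.55% of genes were called, 3.27% as lower. The ratio of Jun turned from -0.37 to 0.16 and that of Klf6 from 0.17 to -0.33, while Atf3 was at -0.79 (-1.09 to -0.50). The Oil and JT003-Fibrosis libraries have no such second column in use here.

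**Figure D3:**
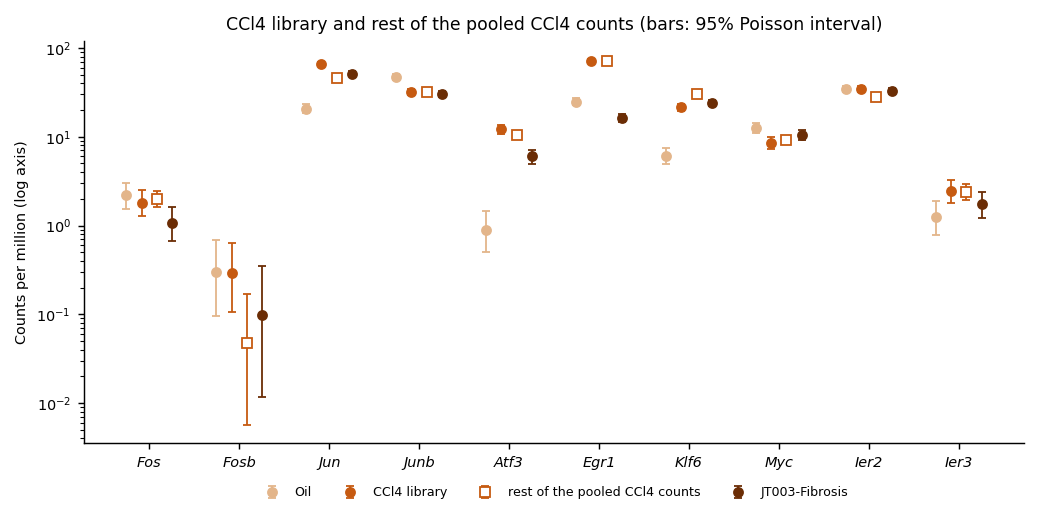
Level in CPM (log axis) of each gene in Oil, the CCl4 library, the rest of the pooled CCl4 counts (open squares) and JT003-Fibrosis, with 95% Poisson intervals. The open and filled CCl4 symbols of Egr1 coincide (70.8 and 71.4), far above JT003-Fibrosis, while those of Jun (46.3 and 66.7) and Klf6 (30.4 and 21.4) stand apart.

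The control libraries also differed from each other. Between Oil and CD, Ier2 was called higher (583 against 316 counts, 1.03, 0.83 to 1.24) and Jun lower, where 5.42% of 17020 genes were called. Junb had 792 counts in Oil and 462 in CD, a ratio of 0.92 (0.76 to 1.10), and Junb and Ier2 were both at their highest in Oil. Ier2 separated by model rather than by treatment, with 29.5 to 37.2 CPM spanned by the intervals of the fibrosis libraries and 14.7 to 23.6 by those of the diet libraries. Atf3 had 15 counts in Oil and 38 in CD (-1.10, -2.16 to -0.30, adjusted p = 0.0192). With total reads in place of TMM scaling Ier2 was at 0.94 and not called. The control libraries thus differed by as much as some libraries called between treatments.

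Ranked by level over all 6 libraries, Egr1 had the clearest order. CCl4 (69.0 CPM) stood above CD (36.5) and JT003-HFD (34.2), which did not differ beyond their intervals, then Oil (24.6) and HFD (20.9), which also overlapped, and JT003-Fibrosis (15.6) last. For Klf6 the 4 libraries with injury or diet, 15.9 to 23.1 CPM, lay above CD (8.70) and Oil (6.00), whose intervals, 7.42 to 10.1 and 4.89 to 7.28, did not overlap. Myc, which drives growth and ribosome biogenesis, was highest in CD with 395 counts, against 298 in HFD, 249 in JT003-HFD, 211 in Oil, 175 in CCl4 and 217 in JT003-Fibrosis. The 5 libraries below CD overlapped with their neighbours in order. Ier3, with 21 to 50 counts, had overlapping neighbours throughout, as did Fos and Fosb.

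The 10 genes did not form 1 group. Of their 45 pairs over 6 libraries, 22 had a positive Pearson r, 5 had r above 0.8, and the median r was -0.01. Besides Fos and Fosb, the pairs above 0.8 were Atf3 with Klf6 (0.92), Ier3 (0.90) and Jun (0.88), and Jun with Klf6 (0.83). The lowest r was that of Ier2 and Myc, at -0.81. These values share 6 libraries of 2 experiments and are given without a test.

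**Figure D4:**
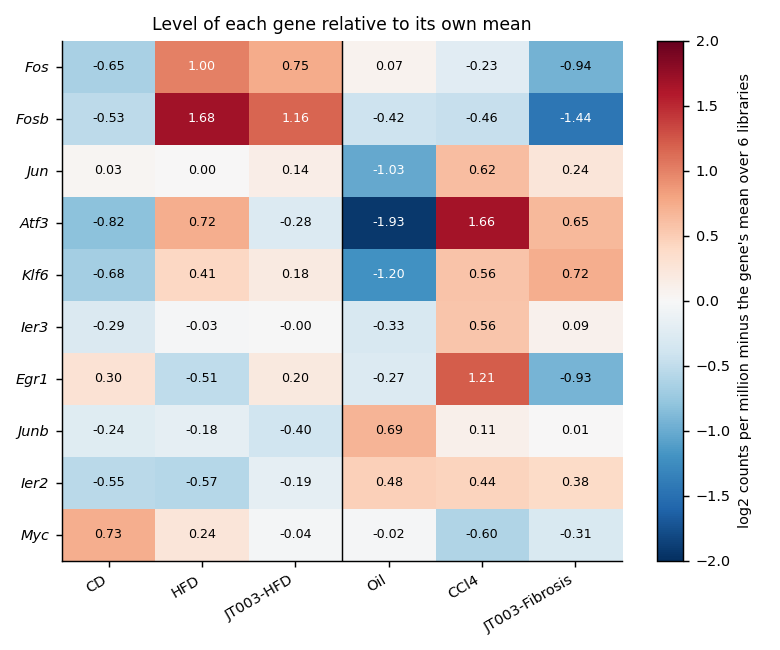
Log2 CPM of each gene minus its own mean over the 6 libraries (colour and printed value). Fos and Fosb are high in HFD (1.00 and 1.68) and JT003-HFD, Atf3 runs from -1.93 in Oil to 1.66 in CCl4, and Egr1 is at 1.21 in CCl4 and -0.93 in JT003-Fibrosis.

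The mean profile of the 7 members with at least 100 counts was compared with 3684 other genes. These had at least 100 counts in their highest library and a range of at least 1 on the log2 scale. The genes most like it were Inhba (r = 0.995), Akr1b3 (0.992), Lgals3 (0.983), Arhgap10 (0.982) and Ly6e (0.981). Inhba encodes a subunit of activin A, and Lgals3 encodes galectin-3, a lectin of activated macrophages. Inhba had 50, 60 and 58 counts in CD, HFD and JT003-HFD and 30, 137 and 76 in Oil, CCl4 and JT003-Fibrosis, the same order of Oil, JT003-Fibrosis and CCl4 as Atf3. Likeness over 6 libraries is a description.

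Among the genes around the members, the other AP-1 subunits and dimer partners had 0 calls in all 4 main comparisons, of 11 or 12 tested. Their medians were 0.18, -0.18, 0.14 and -0.22 for HFD, JT003-HFD, CCl4 and JT003-Fibrosis in turn. Jund, the most abundant of them, had 1859 counts in Oil and 3598 in CCl4 (0.66). Jund, Fosl2 and Maff are named after their values were seen. Fosl2 had ratios of -0.46 in HFD and 0.19 in CCl4, and Maff 0.84 in HFD and 0.02 in CCl4.

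Of 15 other immediate early transcription factors, 1 rose and 1 fell in each of the disease libraries. The orphan nuclear receptor Nr4a1 fell in both, from 180 counts in CD to 83 in HFD (-1.19, -1.60 to -0.83) and from 181 in Oil to 30 in CCl4 (-2.79, -3.49 to -2.32). It had 129 counts in JT003-HFD (0.60 against HFD, not called) and 74 in JT003-Fibrosis (1.24 against CCl4, called higher). Nr4a1 thus moved against Egr1 in CCl4 and JT003-Fibrosis. In the remainder of the pooled CCl4 counts, however, Nr4a1 was at 3.35 CPM, beside 1.46 in the CCl4 library, 3.58 in JT003-Fibrosis and 10.8 in Oil, so its difference with JT003 was not seen against the remainder. Nfil3 rose in the CCl4 library, from 420 to 1145 counts (1.16), but was not called in the remainder against Oil (45.6 and 25.02 CPM). There Btg2, Ier5 and Klf4 were called higher instead, and Btg2, Klf4 and Klf10 were called lower in JT003-Fibrosis against the remainder. These 4 genes are named after their values were seen. Egr2, a paralog of Egr1 named after its values were seen, rose in HFD from 2 to 38 counts (3.26), which is opposite to the Egr1 ratio there. The 15 upstream kinases and promoter-bound factors, among them Srf, Creb1 and the MAP kinases, had 0 calls in the 4 comparisons.

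The feedback inhibitors of these pathways, which immediate early signalling itself induces, had few calls among 18 genes. In HFD, Spry4, an inhibitor of receptor tyrosine kinase signalling, rose from 83 to 330 counts (1.88) and Tnfaip3, an inhibitor of NF-kB, from 45 to 158 (1.68). In CCl4, the MAP kinase phosphatase Dusp8 rose from 36 to 274 counts (2.58) and Socs3, the feedback inhibitor of STAT3, fell from 425 to 242 (-1.09). In JT003-Fibrosis, Socs3 rose against CCl4, to 537 counts (1.13), and Spry4 fell from 139 to 66 (-1.06). Against the remainder of the pooled CCl4 counts, the calls of Socs3 and Spry4 were not there, with 0 genes called lower in the remainder than in Oil and 0 called either way in JT003-Fibrosis against the remainder. Socs3 was at 25.3 CPM in Oil, 11.8 in the CCl4 library, 14.4 in the remainder and 26.0 in JT003-Fibrosis. Dusp8 was called higher in the remainder too, together with Tnfaip3 and the MAP kinase phosphatase Dusp1, which is named after its values were seen. With JT003 on the high-fat diet none was called, of 18.

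Several secreted and surface products of the early response were called. In HFD 4 of 11 rose, including the chemokine Cxcl1 from 18 to 233 counts (3.47), thrombospondin Thbs1 from 18 to 125 (2.58) and the stress cytokine Gdf15 from 115 to 324 (1.39). The fourth, the chemokine Ccl2 (3 to 45 counts), is named after its values were seen. In JT003-HFD 4 of 11 fell against HFD, among them Thbs1 from 125 to 30 counts (-2.01, -2.71 to -1.50). The matricellular genes Ctgf and Cyr61, which are named after their values were seen, also fell, at -1.42 and -1.27. The median of the list was 0.92 in HFD against CD and -1.27 in JT003-HFD against HFD, where the 10 members were at 0.16 and -0.22. In CCl4 3 of 12 rose, Gdf15 (2.22), Cxcl1 (1.29) and Thbs1 (1.25), and in JT003-Fibrosis Cxcl1 rose further, from 72 to 357 counts (2.27), while 0 fell. Here the CCl4 library and the remainder parted, with Cxcl1 at 3.51 and 10.9 CPM, against 17.3 in JT003-Fibrosis, and Cxcl1 was not called in JT003-Fibrosis against the remainder.

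**Figure D5:**
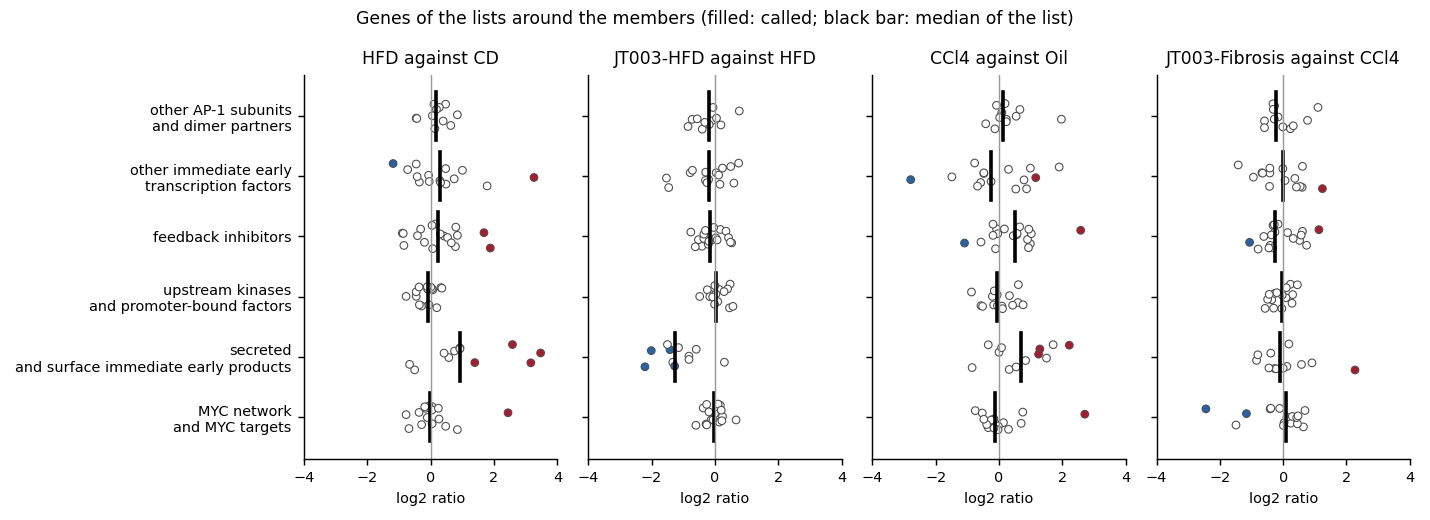
Log2 ratio (horizontal axis) of each tested gene of the 6 lists around the members in the 4 main comparisons, with filled points called higher (red) or lower (blue) and a black bar at the median of the list. The secreted products have a median of 0.92 in HFD and -1.27 in JT003-HFD, while no AP-1 partner or upstream factor is filled.

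For Myc, the 16 partners and targets were nearly flat. In HFD 1 rose and 0 fell, in JT003-HFD 0 were called, in CCl4 1 rose, and in JT003-Fibrosis 2 fell, with list medians of -0.01, -0.03, -0.14 and 0.07. Mycl, a paralog of Myc, fell from 351 counts in CCl4 to 157 in JT003-Fibrosis (-1.16), whereas Myc itself had 175 and 217. In the remainder Mycl was at 10.4 CPM, against 17.1 in the CCl4 library and 7.60 in JT003-Fibrosis, and it was not called against the remainder.

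Other signals in the same livers moved with these genes, and their part in the results was not tested. All 10 cycling markers rose in CCl4 against Oil and all 10 fell in JT003-Fibrosis against CCl4, the same direction as Egr1, with summed levels of 10.8, 301 and 27.3 CPM in Oil, CCl4 and JT003-Fibrosis and 5.62 to 12.3 in the diet libraries. Clock genes moved as well. Dbp, an output gene of the clock, had 824 counts in Oil, 96 in CCl4 and 1931 in JT003-Fibrosis, and Arntl, which peaks in the opposite phase, had 142, 386 and 34. In HFD, Dbp had 1738 counts against 398 in CD, and Arntl 46 against 195. The remainder of the pooled CCl4 counts resembled the CCl4 library in Egr1 and in Dbp (5.16 and 4.68 CPM, against 93.5 in JT003-Fibrosis). The summed cycling markers were lower in the remainder than in the CCl4 library (214 and 312), though above the 28.4 of JT003-Fibrosis. Their median log2 ratio of remainder to library was -0.60, with 1 of 10 called lower.

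Of 8 macrophage markers with reads, 6 rose in CCl4 and 1, Marco, in JT003-Fibrosis, and all 8 were lower in Oil than in CD. Summed levels were 244, 233 and 321 CPM in CD, HFD and JT003-HFD and 64.1, 147 and 223 in Oil, CCl4 and JT003-Fibrosis. From CCl4 to JT003-Fibrosis, Marco went from 7.59 to 58.3 CPM, Cd68 from 13.9 to 9.12 and Adgre1 from 9.01 to 7.03. In that comparison 5 of the 8 ratios were above 0. The summed level of the remainder was higher than that of CCl4 or JT003-Fibrosis, at 282 CPM beside 152 in the CCl4 library and 232 in JT003-Fibrosis on the scale of those 4 columns. Against it, 0 macrophage markers were called higher in JT003-Fibrosis and 2, Cd68 and Adgre1, lower. The low macrophage level of Oil stood beside the low levels of Atf3, Klf6 and Jun in that library. CD, at 244 CPM of macrophage markers, had the next lowest levels of Atf3 (2.01) and Klf6 (8.70). CCl4, at 147 CPM, had the highest of Atf3 (11.7) and Jun (64.5). A link between the markers and the members was not tested. Of 8 stellate cell and myofibroblast markers, 3 rose in HFD and 2, Col1a1 and Col3a1, in CCl4. With JT003, 2 of 8 fell in each model. Summed levels were 236, 394 and 321 in the diet model and 214, 370 and 281 in the fibrosis model. In CCl4 against Oil, 5 of the 8 ratios were above 0, while Acta2 went from 165 counts in Oil to 108 (-0.89, not called). The remainder was at 511 CPM, beside 382 in the CCl4 library, 217 in Oil and 293 in JT003-Fibrosis on the same scale. Cholangiocyte markers were at 26.5 to 40.5 in the diet libraries, where Cftr was at 0, and at 50.2, 156 and 143 in Oil, CCl4 and JT003-Fibrosis, with 4 of 6 called higher in the CCl4 library and 2 of 6 in the remainder. Neutrophil markers (12.8 to 17.8) and lymphocyte markers (3.16 to 5.63) were low in all 6 libraries, with 0 calls in the 4 main comparisons, though the neutrophil genes S100a8 and S100a9 were called higher in the remainder than in Oil and lower in JT003-Fibrosis than in the remainder. Endothelial markers were lowest in the CCl4 library (92.9) and 146 to 282 elsewhere. The remainder was at 157 CPM, beside 96.1 in the CCl4 library, 160 in Oil and 152 in JT003-Fibrosis on the same scale, so the low level was that of the 1 library.

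Heat shock genes, a separate stress response, were called with JT003 on the high-fat diet where the immediate early genes were not. Hspa1a is an inducible HSP70 whose reads may be split with its near-identical copy Hspa1b. Hspa1a had 97 counts in CD, 405 in HFD and 14 in JT003-HFD. In Oil, CCl4 and JT003-Fibrosis it had 39, 56 and 19. Hspa1b held more reads, with 2320, 3258 and 209 in the diet libraries and 531, 921 and 249 in the fibrosis libraries. Its log2 ratio of HFD against CD was 0.4 and was not called, so the rise of Hspa1a in HFD does not stand for the pair. With JT003 on the high-fat diet 6 of 9 heat shock genes fell, while 0 of the 10 immediate early members were called. Of 9 hypoxia genes, 0 were called in HFD against CD or in JT003-HFD against HFD. In CCl4, Ndrg1 rose (274 to 1862 counts, 2.47) and Bnip3 fell (-1.11), and in JT003-Fibrosis Ndrg1 fell back to 204 counts (-3.19), as Egr1 did.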

How the data were processed

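Expression in 6 mouse liver libraries, 1 per condition, was measured by RNA sequencing on a BGISEQ-500 instrument. The authors deposited, per gene and library, an expected count, an estimate of reads without normalization, and an FPKM value, a count scaled to transcript length and library. The submitters' processing notes name HISAT, Bowtie2 and RSEM and the build mm9, without versions. The files hold no coordinates, and the library kit's use of strand is not given in the sources used here. In a mouse annotation (GENCODE, basic set) no exon of another gene overlapped a member. The authors also deposited 4 comparison tables. Their fold changes and p-values were not used, nor were 7 of their expression columns. The CCl4 column of expected counts in 1 table was used as the authors' pooled value.

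Expected counts were rounded. The totals were 19374255 to 20184578 per library, and 69.9% to 70.9% of values were whole numbers. Libraries were scaled by TMM (edgeR 4.0.16, R 4.3.3) within each model (3 libraries) for ratios, and over all 6 for CPM and for Oil against CD. For genes with at least 1 read in the 2 libraries, scipy 1.17.1 gave the two-sided exact conditional binomial p (double the smaller tail), which was adjusted by Benjamini-Hochberg. Calls required an adjusted p below 0.001 together with a log2 ratio of 1 or more in size, computed after adding a prior count of 2. Clopper-Pearson intervals of ratios and exact Poisson intervals of levels (95%) cover counting error only. The test was checked on simulated counts. Python 3.11.15, numpy 2.4.6, pandas 2.3.3 and matplotlib 3.10.9 were used.

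The members, the lists and the tests were chosen with earlier results of these data known. Every member is named. Of each other list up to 4 genes were named, those with the largest log2 ratio among genes called in any of the 4 main comparisons and holding at least 100 counts in 1 of the libraries compared, and so were the 5 genes most like the mean member profile, among genes with at least 100 counts and a range of at least 1 on the log2 scale. The values of 1 gene that this rule names are not reported here. Alternatives were total reads, DESeq2 1.42.0 size factors, at least 10 counts, a prior count of 0.5, no fold threshold, the exact test of edgeR under a coefficient of variation set to 0.2 or 0.4, log2 of the deposited FPKM plus 1, and the pooled CCl4 counts or their remainder.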

Additional observations from a re-analysis of the deposited data

Results flagged for a closer look

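Egr1 moved in opposite directions in the 2 models, both with disease and with JT003. Its log2 ratio was -0.8 in HFD against CD and 1.51 in CCl4 against Oil. With JT003 it was 0.71 against HFD and -2.13 against CCl4. The HFD library enters both diet ratios and the CCl4 library both fibrosis ratios, so the disease and JT003 directions are not separate observations. The difference between the models was not tested, since each group is 1 library.

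Jun had a log2 ratio of 0.14 with JT003 on the high-fat diet and -0.37 with JT003 after CCl4, and this difference was not tested either. Against the remainder of the pooled CCl4 counts the second value is 0.16. Myc had ratios of -0.28 and 0.3 in the same comparisons, also not tested, and neither was called.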

How the results depend on the processing

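No paired analysis was possible because each group has 1 library, and leaving out a replicate was not possible for the same reason. Of the values recomputed under the alternatives for single genes, 522 kept their direction and side of the threshold. A further 33 were no longer called, 19 were newly called and 22 changed sign. Under the exact test of edgeR with the coefficient of variation set to 0.2, the number of members called was 0 in HFD against CD, 1 in CCl4 against Oil, 0 in JT003-HFD against CD, 1 in JT003-Fibrosis against Oil and 0 in Oil against CD. At 0.4 it was 0 in these 5 comparisons and 0 in JT003-Fibrosis against CCl4. With log2 of the FPKM plus 1, it was 1 in HFD against CD, 0 in JT003-HFD against CD and 1 in Oil against CD. DESeq2 size factors gave 1 in JT003-HFD against HFD and 2 in JT003-Fibrosis against CCl4, as did a prior count of 0.5. Without a fold threshold it was 2 and 3 in these comparisons, 3 in JT003-HFD against CD, 5 in JT003-Fibrosis against Oil and 5 in Oil against CD. Total reads gave 1 in Oil against CD.

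Total reads moved the median log2 ratio of all genes by over 0.1, to 0.12 in HFD against CD, 0.23 in CCl4 against Oil, 0.13 in JT003-HFD against CD and 0.32 in JT003-Fibrosis against Oil, and raised the share of calls that are higher from 66.4% to 81.9% in CCl4 against Oil, from 54.2% to 65.5% in HFD against CD, from 65.2% to 85.7% in JT003-Fibrosis against Oil and from 53.4% to 66.6% in JT003-HFD against CD, and lowered it from 40.2% to 29.9% in Oil against CD. Uncalled genes near 0 changed sign with total reads and with log2 FPKM plus 1 respectively. These were Jun (0.1 and 0.09) and Ier2 (0.1 and 0.09) in HFD against CD, Fosb (0.15 and 0.01) and Ier2 (0.23 and 0.22) in CCl4 against Oil, Ier2 (0.01 and 0.01) in JT003-Fibrosis against CCl4, Egr1 (0.04 and 0.04) in JT003-HFD against CD, and Ier2 (0.23 and 0.23) and Myc (0.04 and 0.04) in JT003-Fibrosis against Oil. In JT003-Fibrosis against CCl4, the pooled counts gave 0.15 for Ier2 and -0.19 for Klf6, and their remainder 0.54 for Fosb, 0.16 for Jun, 0.27 for Ier2 and -0.33 for Klf6. Depth limits Fosb and Fos most, with 2 to 32 and 22 to 85 counts.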
